A study of Rattus norvegicus with 6 samples.

Results

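The Myc, Max and Mxd network is a set of transcription factors that share partners and DNA sites. Its 10 genes were chosen by name, namely Myc, Mycn, Mycl, Max, Mxd1, Mxd3, Mxd4, Mxi1, Mnt and Mlx. All 10 had a row among the 17327 gene symbols counted in rat Schwann cells, the glia that ensheath peripheral axons, and 9 of them had enough counts to be tested. The cells were primary cultures from sciatic nerves of adult female Wistar rats. The growth medium held forskolin and a form of neuregulin, which the labels name glial growth factor and the study's methods recombinant soluble Neuregulin1 β1. Both groups were grown to confluence in it, so that NRG1 was given again after a withdrawal. They were then starved for 18 h in medium with 2% foetal bovine serum and 10 μM forskolin, which raises cAMP, and kept in that medium for a further 6 h. In this time 3 NRG1 samples received 10 nM recombinant soluble Neuregulin1 β1 (NRG1), the ErbB receptor ligand, and 3 mock samples received the same volume of its buffer (PBS with BSA). Each of 3 independent cell preparations gave 1 sample of each group, so the samples form 3 pairs. The cells had no axonal contact, so they model cultured and not nerve-resident Schwann cells. The comparison asks which of these genes changed 6 h after soluble NRG1.

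Myc, N-Myc and L-Myc, encoded by Myc, Mycn and Mycl, are basic helix-loop-helix leucine zipper proteins that bind DNA only as dimers with Max. These dimers occupy the E-box CACGTG and activate genes of ribosome production, metabolism and growth. The Mxd proteins and Mnt compete for Max and for the same E-boxes, where they recruit SIN3 and histone deacetylases and repress. Mlx is a Max-like protein that pairs with the glucose-responsive Mondo proteins and with some Mxd proteins. Myc is a classical growth-factor response gene with a short-lived mRNA and protein, while several Mxd genes are known for expression in resting or differentiating cells. The counts below measure mRNA, not protein or dimers.

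Because the E-box links the members to each other and to their targets, the promoters that carry it are shown first. RefSeq promoter windows on the rat GRCr8 build, running from 250 bases before to 50 after the annotated start, were found for 8 of the 10 members, the entries for Myc and Mycn being the ones not matched. The letters CACGTG, which read the same on both strands, occurred in 4 of these 8 windows, those of Max, Mxd4, Mnt and Mlx. They occurred in 9.67% of the 7479 windows of tested genes and in 6.65% of all 27457 windows. A match is a run of letters and was not tested as a binding site. The 250 bases upstream of the start of these 4 genes are given 5′ to 3′ on the strand of the gene, with the E-box letters in capitals.
Max, chr6:101395291-101395540, minus strand, E-box beginning 33 bases before the start: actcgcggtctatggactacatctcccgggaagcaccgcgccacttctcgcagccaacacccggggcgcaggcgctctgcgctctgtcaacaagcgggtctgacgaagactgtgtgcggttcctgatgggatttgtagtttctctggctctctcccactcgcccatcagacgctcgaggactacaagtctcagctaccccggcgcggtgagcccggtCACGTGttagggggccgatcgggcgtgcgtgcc
Mxd4, chr14:80786531-80786780, plus strand, E-box beginning 197 bases before the start: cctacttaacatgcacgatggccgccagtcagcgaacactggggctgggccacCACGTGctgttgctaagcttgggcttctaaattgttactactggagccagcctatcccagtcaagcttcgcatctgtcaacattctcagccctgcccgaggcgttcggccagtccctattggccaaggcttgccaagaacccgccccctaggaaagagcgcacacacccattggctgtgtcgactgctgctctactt
Mnt, chr10:60197709-60197958, plus strand, E-box beginning 123 bases before the start: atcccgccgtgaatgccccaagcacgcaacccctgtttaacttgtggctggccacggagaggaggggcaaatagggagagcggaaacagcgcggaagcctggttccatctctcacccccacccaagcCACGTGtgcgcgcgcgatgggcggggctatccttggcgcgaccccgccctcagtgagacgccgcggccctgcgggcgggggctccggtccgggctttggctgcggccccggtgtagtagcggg
Mlx, chr10:86519636-86519885, plus strand, E-box beginning 70 bases before the start: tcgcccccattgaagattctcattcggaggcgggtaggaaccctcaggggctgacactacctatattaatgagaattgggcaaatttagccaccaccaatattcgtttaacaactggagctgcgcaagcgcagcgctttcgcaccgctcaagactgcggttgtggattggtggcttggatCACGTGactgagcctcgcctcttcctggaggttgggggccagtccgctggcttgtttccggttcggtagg

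Counts on genes summed to between 6821590 and 15475018 per sample, so that 3 counts, taken as the floor, correspond to 0.194 to 0.444 CPM (counts divided by library size, with TMM factors). The 7 Schwann cell markers used were counted in every sample. Their summed level was 3975 to 8688 CPM in mock and 3062 to 6709 CPM in NRG1 samples. By edgeR's paired test 4 of the 7 fell, with adjusted p-values up to 0.00883. These were Egr2, Pmp22, Cdh19 and S100b, with log2 fold changes of -1.71, -1.57, -1.10 and -0.58. Sox10, Ngfr and Erbb3, at 0.11, 0.08 and -0.21, had adjusted p-values of 0.305 or more. The sums thus hold genes that changed between the groups and do not measure Schwann cell content there. Culture 1 stood apart. Its 7 fibroblast markers summed to 24640 CPM in the mock and 25139 CPM in the NRG1 sample, against 848 and 456 CPM in mock and 285 and 180 CPM in NRG1 samples of cultures 2 and 3. Col3a1 alone was at 21914.5 CPM in the mock and 22761.4 CPM in the NRG1 sample of culture 1. In cultures 2 and 3 the fibroblast markers Thy1, Dcn and Lum were at 0. Not all 7 set culture 1 apart, as Fbln1 and Pi16 lay between 2.58 and 7.79 CPM in every sample. Culture 1 also had the lowest Schwann cell marker sums. The 8 macrophage markers summed to at most 4.64 CPM, with Ptprc, C1qa and C1qb at 0 throughout, the 5 neuron markers to at most 1.18 CPM, with Rbfox3 at 0, and the 5 endothelial markers to at most 15.2 CPM, nearly all of it from Tek, with Pecam1 and Cdh5 at 0. Values for the members are therefore given by culture, and those without culture 1 stand beside the results that change there. In bulk RNA, fewer cells of a type and less RNA per cell cannot be told apart.

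After NRG1, both Myc and Mycn rose and the repressor genes Mxd4 and Mxi1 fell, while Max and Mlx, the shared partners, were not called. Called means an adjusted p of at most 0.01 in edgeR's paired quasi-likelihood test across 9740 genes. Of the 9 members tested, 2 were called up, where the background over all genes tested was 6.31%, and 2 were called down, where it was 5.51%. By edgeR none of the 4 passed the further threshold of an absolute log2 fold change over 1, which 1.56% of all genes passed upwards and 1.91% downwards, while DESeq2 put Mycn at 1.04. At an unadjusted p under 0.05 by edgeR, 6 of the 9 members differed, where 35.7% of all genes tested did. The median log2 fold change of the 9 members was -0.35, against -0.03 over all genes tested. In 3 members the ranges of the groups did not overlap (background 19.7%), Myc upwards, where 9.79% of all genes did this, and Mxd1 and Mxi1 downwards, where 9.86% did. By direction alone, 3 of the 9 members were higher and 4 lower after NRG1 in all 3 pairs. Of the 9740 genes tested, 2533 were higher and 2917 lower in all 3 pairs. The members with 1 direction in all pairs include Max, Mycl and Mxd1, which were not called.

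**Figure D1:**
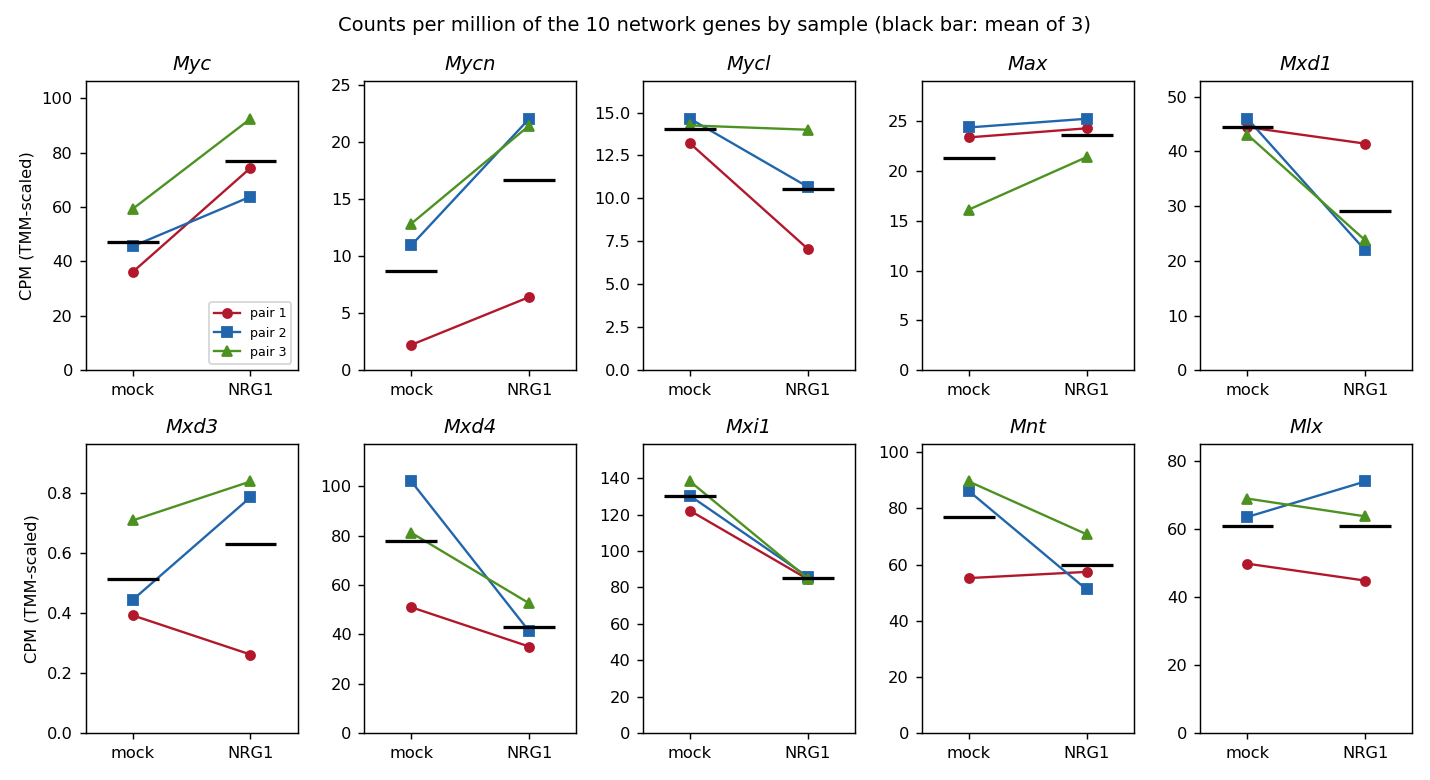
TMM-scaled CPM (vertical axes, from 0, each gene on its own scale) of the 10 network genes in mock and NRG1 samples. Points joined by a line are the 2 samples of a culture and black bars are means of 3. The lines of Myc, Mycn and Max go up and those of Mycl, Mxd1, Mxd4 and Mxi1 go down in all 3 cultures. Mxi1 ends between 84.6 and 85.8 CPM in each NRG1 sample.

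Among the activators, Myc, whose protein drives growth and ribosome production, was counted at 36.1, 45.5 and 59.3 CPM in mock samples 1, 2 and 3 and at 74.4, 63.8 and 92.4 CPM in NRG1 samples 1, 2 and 3. Every NRG1 sample was above every mock sample, and the order of the cultures was not the same in the 2 groups. Its mean went from 47.0 ± 11.7 to 76.9 ± 14.5 CPM (means ± SD, n = 3 each), which on the log2 scale is 0.72 (SE 0.13, adjusted p = 0.00167), or 1.65-fold. The log2 ratio was 1.04 in culture 1, 0.48 in culture 2 and 0.64 in culture 3. The rise was largest in the culture with the high fibroblast markers, and without that culture the log2 fold change was 0.57 and the adjusted p was 0.014, over the threshold. The part of fibroblasts in the Myc value was not tested.

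Mycn, the paralog best known from neural crest and its tumours, was counted at 2.22, 10.9 and 12.8 CPM in mock samples 1, 2 and 3. In NRG1 samples 1, 2 and 3 it was at 6.40, 22.01 and 21.4 CPM. The groups overlapped because culture 1, where 17 and 49 counts lay behind the values, was low in both, and the spread between mock samples was 5.77-fold. Within every pair the NRG1 sample was the higher one, with log2 ratios of 1.45, 1.00 and 0.73. The change was 0.98 on the log2 scale (SE 0.19, adjusted p = 0.00234), or 1.97-fold, which is just inside a doubling. Without culture 2 it was 0.94 with an adjusted p of 0.0104.

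Mycl, which encodes L-Myc, did not rise with its paralogs. It was counted at 13.2, 14.6 and 14.2 CPM in mock samples, a spread of 1.11-fold, and at 7.06, 10.7 and 14.0 CPM in NRG1 samples 1, 2 and 3. The NRG1 samples spread over 1.98-fold, and only the third reached the range of the mock samples. On the log2 scale the difference was -0.42 (95% interval -0.83 to 0.00, adjusted p = 0.142), so that Mycl was not called in either direction. Its log2 ratio was -0.88, -0.45 and -0.03 in cultures 1, 2 and 3. Without culture 1 the log2 fold change was -0.22 (adjusted p = 0.59), and without culture 3 it was -0.65 (adjusted p = 0.123).

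Max, the common partner of the Myc, Mxd and Mnt proteins, was counted at 23.4, 24.4 and 16.1 CPM in mock and at 24.3, 25.3 and 21.4 CPM in NRG1 samples. The groups overlapped, and cultures 1 and 2 differed between mock and NRG1 by a log2 ratio of 0.05 each. On the log2 scale the difference was 0.18 (95% interval -0.14 to 0.49, adjusted p = 0.425). An increase in Max beyond a log2 fold change of 0.49 lies outside that interval. Without culture 3 the difference was 0.07 (adjusted p = 0.871).

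**Figure D2:**
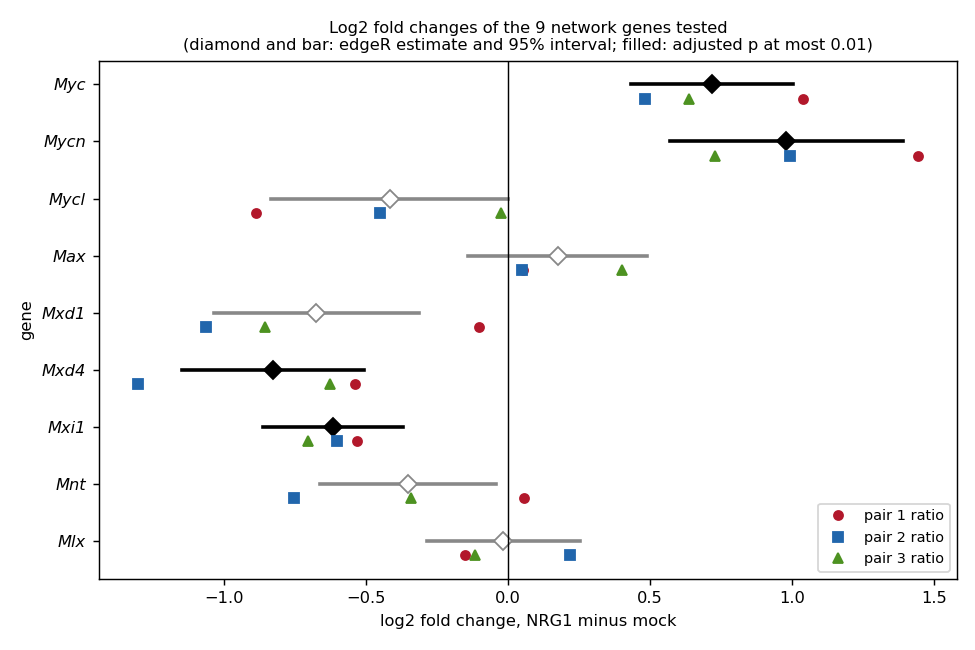
Log2 fold changes, NRG1 minus mock (horizontal axis), of the 9 network genes tested. Diamonds and bars are the edgeR estimates with 95% intervals, filled where the adjusted p was at most 0.01, and the coloured symbols below each bar are the ratios within the 3 cultures. Myc and Mycn lie to the right at 0.72 and 0.98, Mxd4 and Mxi1 to the left at -0.83 and -0.62, and the culture 1 ratio of Mxd1 lies apart from the other two.

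Of the repressors, Mxi1 had the most uniform response. It was counted at 122.2, 130.4 and 138.3 CPM in mock and at 84.6, 85.8 and 84.9 CPM in NRG1 samples 1, 2 and 3. The groups did not overlap, and the 3 NRG1 samples differed by only 1.01-fold although their cultures differed in Schwann cell and fibroblast markers. The mean went from 130.3 ± 8.05 to 85.1 ± 0.65 CPM (means ± SD, n = 3 each), which on the log2 scale is -0.62 (SE 0.12, adjusted p = 0.00177). The log2 ratios of -0.53, -0.60 and -0.70 spanned 0.17, the narrowest span of the 10 members. Without culture 3 the log2 fold change was -0.55 and the adjusted p was 0.031, so the call then ended.

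Mxd4, another Max-binding repressor of the family, had the largest fold change of the repressors. Its levels were 51.0, 102.0 and 81.2 CPM in mock samples and 35.0, 41.2 and 52.6 CPM in NRG1 samples. The third NRG1 sample lay above the first mock sample, so the groups overlapped, yet every culture had less Mxd4 after NRG1. On the log2 scale this was -0.83 (SE 0.15, adjusted p = 0.00143), or 1.77-fold lower. Culture 2 had the steepest log2 ratio with -1.30, followed by -0.62 in culture 3 and -0.54 in culture 1. Leaving out any 1 culture kept Mxd4 called, with adjusted p-values up to 0.00378, and it was the only member for which all 3 of these fits did so.

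Mxd1, the founding Mad protein, differed by culture. Mock samples were within 1.07-fold of each other, at 44.4, 46.0 and 43.1 CPM. NRG1 samples of cultures 2 and 3 were at 21.9 and 23.7 CPM, while that of culture 1 was at 41.4 CPM. The log2 ratios were -0.10, -1.06 and -0.85 in cultures 1, 2 and 3. Over all 3 cultures the log2 fold change was -0.67 (SE 0.17) with an adjusted p of 0.0103, just over the threshold, and between 0.00016 and 0.0092 under another normalisation or 2 other filters on low counts. The adjusted p was 0.0204 by DESeq2 with the pairing and 0.011 with robust fitting. Without culture 1 the log2 fold change was -0.96 with an adjusted p of 4.3e-05, while without culture 2 it was -0.49 (adjusted p = 0.0434) and without culture 3 it was -0.55 (adjusted p = 0.0825). The p-values of these edgeR fits are not on 1 scale. The smallest adjusted p over all genes was 6.15e-08 with all cultures, 5.8e-48 without culture 1 and 1.64e-32 with no low-count filter. The low ratio belonged to the culture with fibroblast markers at 24640 CPM, and the part of fibroblasts in it was not tested.

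Mnt, the broadly expressed antagonist of Myc, was counted at 55.2, 86.2 and 89.6 CPM in mock and at 57.4, 51.1 and 70.8 CPM in NRG1 samples. Culture 1 again showed next to no difference, with a log2 ratio of 0.06, while cultures 2 and 3 had ratios of -0.75 and -0.34. The log2 fold change was -0.35 (95% interval -0.66 to -0.04, adjusted p = 0.096), and Mnt was not called. Without culture 1 it was -0.54 with an adjusted p of 0.0193, and without culture 2 it was -0.16 with an adjusted p of 0.424.

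Mxd3, a family member tied to S phase in proliferating progenitors, had 3, 3 and 9 counts in mock and 2, 7 and 13 counts in NRG1 samples. These levels of 0.26 to 0.84 CPM were at or near the floor, and the gene did not pass the filter on low counts. A difference was not detectable at this depth.

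Mlx was counted at 49.8, 63.6 and 69.0 CPM in mock and at 44.8, 74.0 and 63.7 CPM in NRG1 samples 1, 2 and 3. The groups overlapped almost wholly, and culture 1 was the lowest in both. The log2 fold change was -0.02 (95% interval -0.29 to 0.25, adjusted p = 0.94), and its sign turned in the fits without culture 1 or without culture 3 and in both fits without the pairing.

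Since the members compete for shared partners, their counts were also set against each other within each library, which removes the library scaling but not the length of the genes. Gene lengths were not used here, so a ratio has meaning only as a change between samples. The ratio of Myc to Mxd4 counts went up by 3.00-, 3.47- and 2.41-fold in cultures 1, 2 and 3, and that of Myc to Mxi1 by 2.98-, 2.13- and 2.54-fold. Against Mxd1 it went up by 2.21-, 2.94- and 2.83-fold, and against Mnt by 1.98-, 2.36- and 1.97-fold. In these 4 ratios every NRG1 sample was above every mock sample. The ratio of Myc to Max went up by 1.98-, 1.35- and 1.18-fold, and its groups overlapped. These ratios combine genes whose changes are given above and are not a further test.

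**Figure D3:**
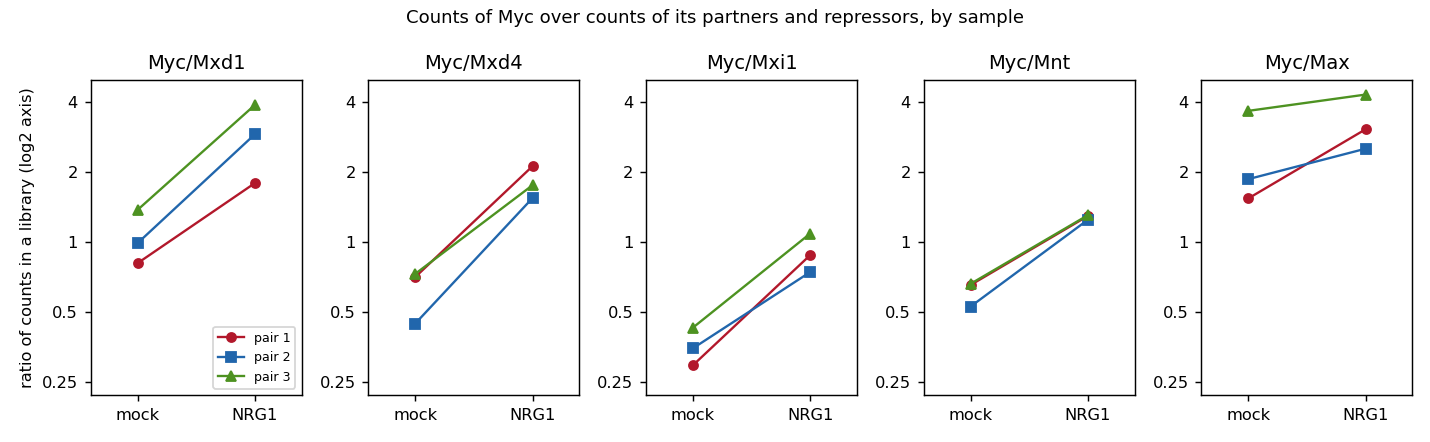
Counts of Myc divided by counts of Mxd1, Mxd4, Mxi1, Mnt or Max in the same library (vertical axis, log2 scale), for mock and NRG1 samples, with lines joining the 2 samples of a culture. For Myc over Mnt the mock samples lie between 0.53 and 0.66 and the NRG1 samples between 1.25 and 1.31, whereas for Myc over Max the groups overlap.

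The summed CPM of Myc, Mycn and Mycl was 51.5, 71.1 and 86.4 in mock and 87.8, 96.5 and 127.9 in NRG1 samples 1, 2 and 3. The summed CPM of Mxd1, Mxd4, Mxi1 and Mnt was 272.8, 364.6 and 352.1 in mock and 218.4, 200.02 and 232.0 in NRG1 samples. Neither pair of groups overlapped, and the repressor sum had its smallest difference in culture 1. For the activators the gap was narrow, with 86.4 CPM in mock sample 3 and 87.8 CPM in NRG1 sample 1. Like the ratios, the sums combine genes whose changes are given above, among them Mycl, which did not rise. They are not a further test.

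Of 8170 genes with a mean log2 CPM over 3, those whose log2 CPM followed Myc most closely over the 6 samples were Il1rap with Pearson r = 0.983, Triobp with 0.980, Sh3d21 with 0.979, Actr1b with 0.978 and RGD1303003 with 0.977. The 6 points share their pairs and libraries, and among so many genes high values of r occur, so these are a description. Il1rap, an accessory subunit of the interleukin 1 receptor, rose from 157.1 ± 45.6 to 319.8 ± 78.3 CPM (means ± SD, n = 3 each), which on the log2 scale is 1.04 (SE 0.13, adjusted p = 6.8e-05). Sh3d21 and Actr1b rose as well, by log2 fold changes of 0.98 and 0.75, while Triobp, at 0.33, and RGD1303003, at 0.16, were not called.

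In the lists of genes around the network, the counts of called genes are to be read beside the 11.8% of all genes tested that were called in either direction. None of the 5 tested of 8 other network proteins was called, where Fubp1, which binds upstream of Myc and favours its transcription, had the largest log2 fold change of 0.36 (adjusted p = 0.0528). Zbtb17, the Myc partner Miz-1, was at 0.24, Mycbp at 0.24, Puf60 at 0.14 and Mycbp2 at 0.08, and Mlxipl, which encodes the Mlx partner ChREBP, did not pass the filter on low counts. Of the 11 tested SIN3 and histone deacetylase corepressor genes none was called either, with log2 fold changes between -0.27 and 0.28. By edgeR 1 of the 5 and 1 of the 11 had an unadjusted p under 0.05, where 35.7% of all genes did. DESeq2 with the pairing called 0 in both lists.

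Of 13 tested coactivator genes 3 were called up and none down, by edgeR as by DESeq2 with the pairing (7 and 0 at an unadjusted p under 0.05, which 17.0% of all genes passed upwards and 18.7% downwards), with a median log2 fold change of 0.34. The 3 were Ruvbl2 and Ruvbl1, the paired ATPases of the TIP60 and INO80 complexes, and Wdr5, which helps Myc bind chromatin. Ruvbl2 rose from 52.1 ± 16.1 to 113.3 ± 21.3 CPM (means ± SD, n = 3 each), which on the log2 scale is 1.14 (SE 0.13, adjusted p = 5.3e-05). Ruvbl1 rose by 0.88 (adjusted p = 0.00035) and Wdr5 by 0.64 (adjusted p = 0.00178) on the log2 scale. Among 14 tested genes that act on the stability of the Myc protein, only Set, an inhibitor of the phosphatase PP2A, was called, with a log2 fold change of 1.05 (adjusted p = 0.00012), and the list's median was 0.12.

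Most genes that textbooks give as activated by Myc rose. Of 42 tested, 31 were called up and none down, by edgeR as by DESeq2 with the pairing, beside the background of 6.31% up and 5.51% down, and the median log2 fold change was 0.76 against -0.03 for all genes. At an unadjusted p under 0.05, 33 were higher and 0 lower, against 17.0% and 18.7% of all genes. The list was drawn up when some of its members were known to rise in these samples, so its count is not independent evidence. Fbl, the rRNA methyltransferase fibrillarin, rose from 73.6 ± 22.1 to 216.0 ± 50.7 CPM (means ± SD, n = 3 each), which on the log2 scale is 1.56 (SE 0.15, adjusted p = 1e-05). Bop1 and Nop56, which act in the maturation and modification of rRNA, rose by 1.26 and 1.17, and Tfrc, the transferrin receptor, by 1.26 on the log2 scale. With each culture left out in turn, 26 genes of the list were called up.

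The 11 genes of this list that were not called had log2 fold changes between -0.35 and 0.56. They were Ccnd2, Ccne1, Cdc25a, E2f1, Eif2s1, Eif4a1, Ireb2, Mcm4, Mcm7, Prps2 and Tert. Lowest of them was E2f1 at -0.35 and highest was Tert at 0.56, where neither adjusted p (0.241 and 0.393) passed. Tert was counted near the floor, at 0.13 CPM in its lowest mock sample, with log2 ratios of 2.51, -0.64 and 0.76 in cultures 1, 2 and 3. Eif4a1, at 0.54, had an adjusted p of 0.0106 by edgeR, just over the threshold.

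**Figure D4:**
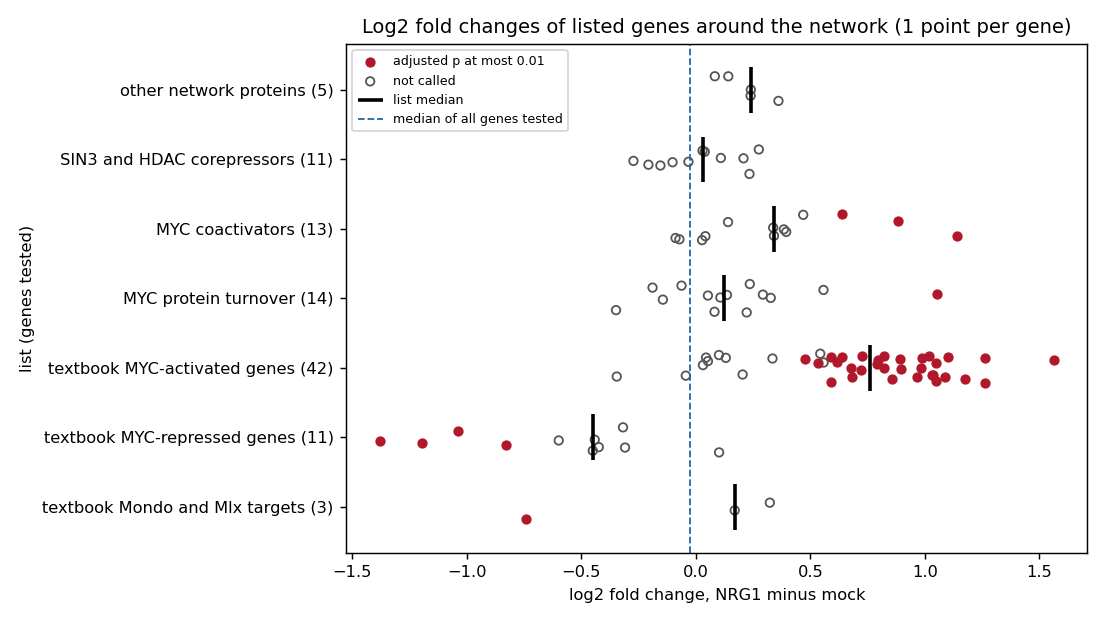
Log2 fold changes, NRG1 minus mock (horizontal axis), of genes in 7 lists around the network, 1 point per tested gene, with vertical jitter only for legibility. Filled points had an adjusted p of at most 0.01, short black bars are list medians and the dashed line is the median of all genes tested. Filled points make up 31 of 42 Myc-activated genes on the right and 4 of 11 Myc-repressed genes on the left, and none of the SIN3 and HDAC corepressors.

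Of 11 tested genes given as repressed by Myc, 4 were called down and none up, by edgeR as by DESeq2 with the pairing, with a median log2 fold change of -0.45. At an unadjusted p under 0.05, 9 were lower and 0 higher, where 18.7% of all genes were lower and 17.0% higher. Gadd45a, a stress-induced growth arrest gene, fell from 302.1 ± 46.2 to 119.4 ± 38.3 CPM (means ± SD, n = 3 each), which on the log2 scale is -1.38 (SE 0.16, adjusted p = 3.9e-05). Ndrg1 and Ndrg2, of the N-Myc downstream-regulated gene family, had log2 fold changes of -1.20 and -1.04, and Cebpa, a differentiation factor, of -0.83. The cyclin-dependent kinase inhibitor genes Cdkn1a, Cdkn1b and Cdkn2b had log2 fold changes of -0.45, -0.32 and -0.31 and were not called. Some of these genes too were known to fall here when the list was made.

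Among the 3 tested targets of Mondo and Mlx dimers, Txnip, which limits glucose uptake, fell from 278.6 ± 125.3 to 164.8 ± 67.5 CPM (means ± SD, n = 3 each), which on the log2 scale is -0.74 (SE 0.12, adjusted p = 0.00052), with ratios of -0.80, -0.67 and -0.75 in the 3 cultures. Arrdc4, at 0.32, and Klf10, at 0.17, were not called, and Pklr did not pass the filter. The value of Arrdc4 was 0.92 without culture 1, 0.12 without culture 2 and 0.11 without culture 3, and it was not called in any of these fits. Mlx itself, as given above, was not called.

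E-box letters were then counted in the promoter windows of the called genes. CACGTG occurred in 15.1% of 470 windows of genes called up, in 7.33% of 409 windows of genes called down and in 9.42% of 6600 windows of genes not called. The median GC content of the windows was 62.5%, 61.7% and 61.7% in these groups, and their base composition was not tested beyond this median. The variant CACGCG, searched on both strands and able to share bases with a neighbouring CACGTG, occurred in 23.0%, 11.7% and 18.3% of the same windows. In the Myc-activated list, 10 of 38 windows held CACGTG and 10 held CACGCG. Of the 10 with CACGTG, 9 belonged to the 29 called genes with a window. None belonged to the 8 that were not called, and the other was that of Srm, which was not tested for a change. Whether none of 8 differs from the 9.42% of all genes not called was not tested. Of these 9 called genes, 5 are shown as examples. Not shown are Apex1, with 3 E-boxes, the nearest 11 bases before the start, and Shmt1, Dkc1 and Slc7a5. For each of the 5 the E-box nearest to its start is given, to set the flanks side by side. The 20 bases are on the strand of the gene, with the motif in capitals.
Fbl, chr1:92597421-92597440, plus strand, beginning at base 22 after the start: ttttttcCACGTGtgaaagc
Ddx18, chr13:35295973-35295992, minus strand, 13 bases before the start: aactgcgCACGTGcatctgt
Ldha, chr1:106507998-106508017, plus strand, 87 bases before the start: cagcctaCACGTGggttccc
Eif4e, chr2:229740666-229740685, plus strand, 80 bases before the start: cgtccgtCACGTGggcagga
Cdk4, chr7:64771351-64771370, plus strand, 95 bases before the start: tggaggtCACGTGtccagaa
Fbl, with 1 E-box, had the largest log2 fold change of the list, 1.56, and Cdk4, with 3, had one of 0.53. Ldha, lactate dehydrogenase A, rose by 0.97 and Eif4e, the cap-binding translation factor, by 0.79 on the log2 scale.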

How the data were processed

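RNA of 3 mock and 3 NRG1 samples of rat Schwann cells was sequenced after poly(A) selection on an Illumina NextSeq. The authors mapped reads to rn5 with TopHat 2.0.10, used htseq with the RefSeq transcriptome for counting and deposited raw counts. The strand setting is not given in the sources used here. The 5 summary lines of each file, between 50.1% and 53.0% of its total, were left out, and alignments in more than 1 place were not counted. Groups and replicate numbers came from the labels.

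Counts were analysed with edgeR 4.0.16 in R 4.3.3. Genes passed filterByExpr at a minimum count of 10 (9740 of 17327) and were scaled with TMM. The quasi-likelihood test was paired by a block for the replicate number, following the study's methods, and Benjamini-Hochberg adjustment ran over all genes tested. A standard error is the log2 fold change divided by the root of F. Ratios within pairs used a prior count of 2. Deviations from group means correlated across genes with r of 0.906, 0.672 and 0.81 for the same number and between -0.797 and 0.514 for different numbers. No 2 libraries agreed within sampling noise. The scripts were tested on simulated counts.

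Members and gene lists were chosen with earlier results of these data known. Of the lists, the text names all members, all other network genes and Mondo targets. From every other list it names up to 4 called genes each way, besides the 5 genes most like Myc. Outside this rule it also names cell type markers, Cdkn1a, Cdkn1b and Cdkn2b, and the Myc-activated genes that were not called. Likewise outside it are Srm and the Myc-activated genes named only for their E-boxes. In the lists, 12 genes had no matching symbol, and a few listed genes are not reported here and were left out of their lists. For promoters the first start listed per symbol was taken. Alternatives were no replicate block, DESeq2 1.42.0, RLE, 2 other filters, robust fitting, an adjusted p of 0.05, plain library sizes and leaving out each pair. DESeq2 without the block was added after seeing the data.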

Additional observations from a re-analysis of the deposited data

How the results depend on the processing

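Without the replicate block, which ignores the pairing of the cultures, edgeR called no gene, with a smallest adjusted p of 0.139 and 1334 genes at an unadjusted p under 0.05. All counts of called members and listed genes were then 0, down from 615 up and 537 down over all genes. The adjusted p was 0.265 for Myc (log2 fold change 0.71), 0.637 for Mycn (0.94), 0.27 for Mxd4 (-0.86) and 0.163 for Mxi1 (-0.62), and Mlx turned to 0.00016. The common coefficient of biological variation was 0.119 with and 0.374 without the block. DESeq2 with no replicate block called 115 genes up and 63 down, and 0 members up and 1 down (Mxi1). It gave 0.72 for Myc, 0.95 for Mycn, -0.84 for Mxd4 and 0.016 for Mlx, and called 1 coactivator up, 11 Myc-activated genes up, 2 Myc-repressed genes down and 0 Mondo targets down. DESeq2 with the block moved no member across the threshold. Mxd1 passed with RLE normalisation (-0.67), with no low-count filter (-0.69) and with at least 10 counts in every sample (-0.68). No filter also gave 857 genes down and 2 turnover genes up. At an adjusted p of at most 0.05 there were 1124 genes up, 1136 down, 6 coactivators up and 2 turnover genes up.

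With 1 pair left out at a time, between 408 and 590 genes were called up and between 253 and 601 down, from 1 to 2 members up and from 1 to 3 down, and from 1 to 2 turnover genes up. The log2 fold change lay between 0.57 and 0.83 for Myc, 0.86 and 1.21 for Mycn, -0.96 and -0.49 for Mxd1, -0.65 and -0.55 for Mxi1, and -0.13 and 0.059 for Mlx, which was 0.05 without replicate 1 and 0.059 without replicate 3. Mycbp2 lay between -0.043 and 0.28, the lower value without replicate 1. Fubp1 lay between 0.24 and 0.47 and Puf60 between 0.073 and 0.20. Why calls moved was not tested, beyond the fewer samples in these fits. Depth limited Mxd3, with 2 to 13 counts, which did not pass the filter. With no filter its estimate was 0.24 on the log2 scale with an SE of 0.68 and an adjusted p of 0.863.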
